A study of Homo sapiens with 6 samples.

Results

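The SOX transcription factors were followed in MCF10A cells grown with or without growth factors. Of the 19198 genes in the deposited expression table, 6 were taken by their gene symbols, namely SOX4, SOX5, SOX9, SOX12, SOX13 and SOX15. MCF10A is an established line of non-tumorigenic human mammary epithelial cells, and the 6 samples were 3 control and 3 growth factor-depleted samples of this single line. The labels and the table list 3 samples per group, whereas the series' design text speaks of 2 replicates, and all 6 were used. Control cells grew in DMEM:F12 with 5% horse serum to which 4 additives were given, the steroid hydrocortisone at 0.5 µg/ml, the adenylate cyclase activator cholera toxin at 100 ng/ml, EGF at 20 ng/ml and insulin at 10 µg/ml. Depleted cells grew in the same base medium and 5% horse serum with all 4 additives left out, so "growth factors" here includes a toxin and a steroid, and serum was present in both groups. The comparison asked how gene expression moves when these additives are withdrawn, a treatment used to induce an epithelial to mesenchymal transition (EMT). No source used here states whether replicates were separate cultures, so each p-value measures only the spread between these samples, which may be technical. The length of the depletion is not stated for these RNA samples.

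SOX proteins bind DNA in the minor groove through a high mobility group (HMG) box that bends the DNA. The family is divided into groups by the sequence of that box. SoxC proteins (SOX4, SOX12) are activators, and SOX4 is widely studied in EMT and cancer. SoxD proteins (SOX5, SOX6, SOX13) carry a coiled coil for dimerization but no known activation domain of their own, and in cartilage SOX5 and SOX6 act beside the SoxE protein SOX9 on matrix genes. SOX9 also marks progenitor states of the mammary gland, and SOX15 is the sole member of group SoxG. Of 19 SOX genes looked for, 7 are in the table, the 6 above and SOX6, which is described beside its SoxD relatives. SOX1, SOX2, SOX3, SOX7, SOX8, SOX10, SOX11, SOX14, SOX17, SOX18, SOX21 and SOX30 are not listed in it.

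Values are normalized counts, the reads of a gene divided by the size factor of the sample, without division by gene length. Reads on genes numbered between 7472418 and 28672630 per sample, and 3 reads, taken as the floor, correspond to 1.76 to 6.71 normalized counts (counting error only). Fold changes are depleted against control on the log2(normalized count + 1) scale from limma, fitted over the 16988 genes whose mean reached 10. A gene was called where the adjusted p (Benjamini-Hochberg) fell under 0.05 and the level differed 2-fold or more. The cell type label names luminal ductal cells. Of 8 luminal markers 7 are listed and ELF5 is not, and the basal markers KRT5, KRT14, TP63 and ITGA6 are also present, with summed levels of 22190.1 to 49719.9 in control samples and 8367.6 to 18779.7 in depleted samples. KRT5 and ITGA6 dominate these basal sums. KRT14 went the other way (log2 fold change 2.69, adjusted p = 0.184 by limma), while the other 3 basal markers had log2 fold changes below 0. The summed luminal markers ran from 6425.8 to 17511.6 in control and from 17393.2 to 31625.1 in depleted samples, sums that KRT8 and KRT18 dominate. Of the 7 luminal markers 5 had a log2 fold change below 0 and 3 were lower in every depleted sample, with a median of -0.72. Of all 16988 genes tested, 8809 had a log2 fold change below 0 and 12.1% were lower in every depleted sample, with a median of -0.03. By limma KRT19 of the luminal list and TP63 of the basal list were called, both lower. Limma called 1.97% of all genes tested lower and 4.36% higher. Of the 6 mesenchymal markers tested, 5 were called higher (VIM, FN1, COL1A1, COL1A2 and PDGFRB), and the summed list lay between 3828.5 and 11395.6 in control samples and between 116221.4 and 186050.4 in depleted samples. In bulk RNA, fewer cells of a type and less RNA per cell cannot be told apart. Depleted replicate 1 stood apart from the other depleted samples, with KRT5 at 562.0 against 10908.3 and 14996.5, EPCAM at 152.9 against 2281.1 and 2486.4, and PDGFRB at 3322.5 against 348.8 and 447.2.

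By limma 1 of the 6 SOX genes was called higher in depleted cells (SOX5) and 1 was called lower (SOX15), while 4 did not pass. Over all genes tested, 6.33% were called in either direction, 4.36% higher and 1.97% lower. The 6 log2 fold changes ran from -2.49 to 2.45 with a median of -0.13, against a median of -0.03 for all genes tested, and 3 lay above 0 and 3 below. The depleted samples all lay above the control samples for 1 gene (SOX5) and all below them for 2 (SOX13 and SOX15). Such separation was found for 13.5% of all genes tested in the upward direction and for 12.1% in the downward direction. The quasi-likelihood test of edgeR on whole reads called SOX5 and SOX15 as well, where it called 5.72% of all genes, and DESeq2 called SOX5, SOX13 and SOX15, where it called 12.4% of all genes. The family thus did not move in 1 direction.

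**Figure D1:**
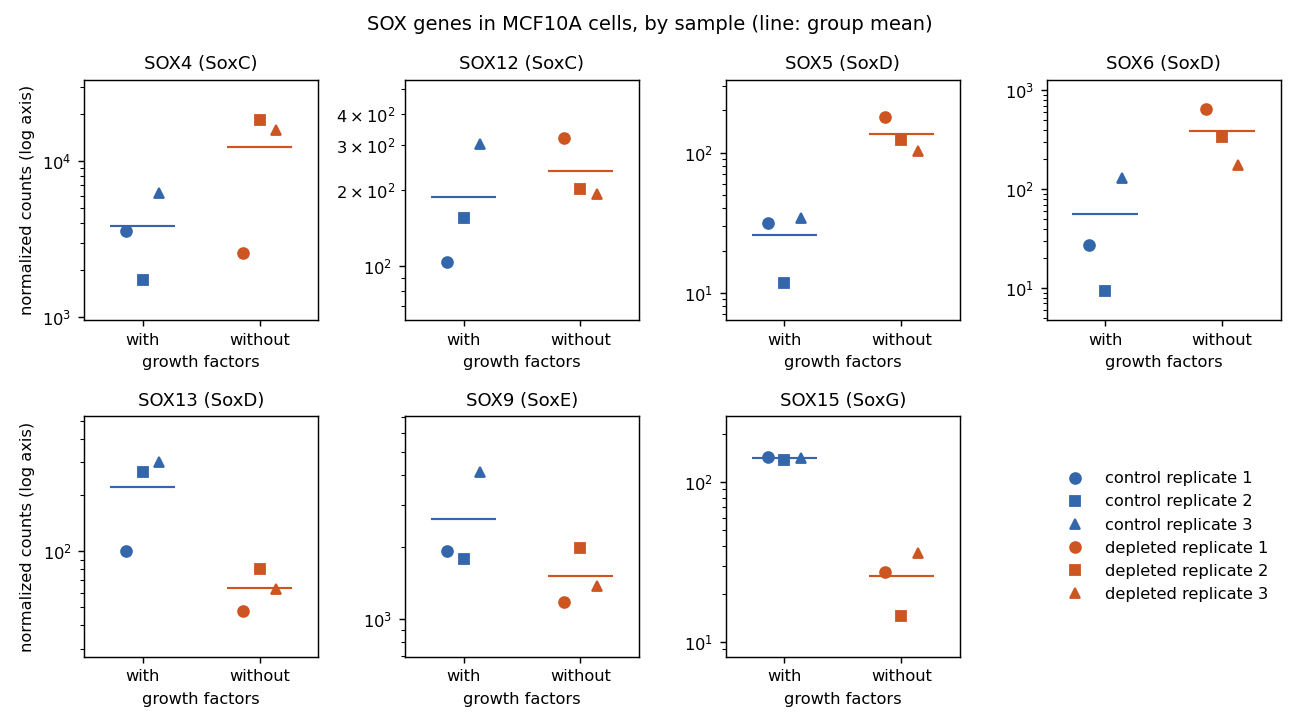
Normalized counts (log axis, a separate scale for each gene) of the 7 SOX genes in the 6 samples, 3 with and 3 without growth factors. Symbols mark the replicate number and lines the group means. The depleted samples lie above every control sample for SOX5 and SOX6 and below every control sample for SOX13 and SOX15, and depleted replicate 1 lies apart from its group for SOX4.

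Levels of different genes were compared per kilobase of annotated exon, which counts the exons of every annotated isoform. In control cells SOX4 was the most abundant at 792 ± 470 normalized counts per kilobase (SD, n = 3), followed by SOX9 at 664 ± 338, and the sample ranges of this pair overlapped. SOX15 came next at 96.5 ± 2.01 per kilobase, followed by SOX12 at 40.2 ± 22.2 and SOX13 at 30.0 ± 14.5, of which the last pair overlapped. SOX5 was lowest of the 6 at 2.29 ± 1.09 per kilobase. In depleted cells the order of the means per kilobase was SOX4 (2538 ± 1760), SOX9 (384 ± 107), SOX12 (51.0 ± 15.4), SOX15 (17.7 ± 7.35), SOX5 (12 ± 3.55) and SOX13 (8.57 ± 2.23). The ranges of SOX15 and SOX5 overlapped there, as did those of SOX5 and SOX13. SOX15 had thus moved from above SOX12 to below it on this scale, while SOX4 and SOX9 kept the top of the order in both groups.

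Among the SoxD genes, SOX5 rose and the groups did not overlap. SOX5 (ENSG00000134532.14) spans chr12:23529504-24562544 on the minus strand of hg38, with 34 separate exon blocks and 11289 exon bases. Control samples held 31.3, 11.7 and 34.4 normalized counts of SOX5, and depleted samples 180.3, 123.9 and 102.9. The ratio of the group means was 5.25, and the log2 fold change was 2.45 (SE 0.54, 95% interval 1.2 to 3.69, adjusted p = 0.0351 by limma). The lowest sample, control replicate 2, still held 20 reads, so SOX5 was a low but counted transcript in every library. This call was close to the threshold. The adjusted p by limma was under 0.05 only without control replicate 3 (log2 fold change 2.71, adjusted p = 0.0185) when samples were left out in turn. Without control replicate 1 the log2 fold change was 2.65 (adjusted p = 0.0742 by limma), and without control replicate 2 it was 1.97 (adjusted p = 0.0805 by limma). Leaving out depleted replicate 1, 2 or 3 gave log2 fold changes of 2.22, 2.49 and 2.62, with adjusted p of 0.106, 0.13 and 0.109 by limma. The adjusted p of SOX5 was 0.0436 by edgeR and 0.00037 by DESeq2.

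SOX13, a SoxD protein first known as an autoantigen and as a partner of TCF proteins, lay lower in every depleted sample but did not pass the test. The gene (ENSG00000143842.13) lies at chr1:204073115-204127743 on the plus strand, with 16 exon blocks. SOX13 had normalized counts of 100.3, 266.0 and 302.0 in control and 47.6, 80.6 and 62.6 in depleted samples. The lowest control value, that of replicate 1, was the one nearest to the depleted samples. The log2 fold change was -1.67 (SE 0.51, 95% interval -2.84 to -0.51, adjusted p = 0.101 by limma). Without control replicate 1 it was -2.17 and passed (adjusted p = 0.0486 by limma). DESeq2 gave an adjusted p of 0.00928 and edgeR 0.0898.

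SOX6, the closest relative of SOX5, had the widest range of the 7 genes relative to its lowest sample. Normalized counts of SOX6 were 27.6, 9.4 and 129.9 in control and 648.0, 335.0 and 174.4 in depleted samples. Each depleted sample was above each control sample, although depleted replicate 3 and control replicate 3 were close. The log2 fold change was 3.32 (SE 0.89, adjusted p = 0.0686 by limma), with an adjusted p of 0.126 by edgeR and 0.00948 by DESeq2. With each sample left out in turn it ran from 2.46 to 4.29, and it passed only without control replicate 3 (4.29, adjusted p = 0.01 by limma), while the other fits gave an adjusted p of up to 0.194.

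The ratio of SOX5 to SOX13 within each sample compared the pair directly, and gene length cancels when the ratio is compared between groups. The ratio of normalized counts was 0.313, 0.0441 and 0.114 in control samples and 3.79, 1.54 and 1.64 in depleted samples. The 2 groups were apart, with SOX5 reads outnumbered by SOX13 reads in each control sample and outnumbering them in each depleted sample. SOX5 lay higher and SOX13 lower in every depleted sample, so the groups had to be apart in this ratio. The permutation p was thereby fixed at its smallest value, and the ratio adds no separate test. On the log2 scale the ratio was -3.05 ± 1.37 in control and 1.07 ± 0.72 in depleted samples (SD, n = 3), a difference of 4.12, with an exact two-sided permutation p of 0.1, the smallest that 3 samples against 3 allow, and 0.2 after adjustment over the 2 pairs compared. With each sample left out in turn, the difference ran from 3.45 to 4.82.

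The sequences upstream of SOX5 and SOX13 are shown because this pair moved apart. They were taken from RefSeq (GRCh38.p14), where 4 of the 6 genes matched (SOX4, SOX5, SOX12 and SOX13), and motifs and CpG dinucleotides were counted over the 250 bases before the annotated start, 5′ to 3′ on the gene's strand. Capitals mark matches, on either strand, to the SOX core ACAAT, the RUNX motif TGTGGT, the E-box CAGGTG bound by EMT repressors of the SNAI and ZEB families, the CCAAT box CCAAT and the GC box GGGCGG. Of 35116 RefSeq promoters with windows of the same length, 24.6% held the SOX core, 11% the RUNX motif, 17.5% the E-box, 32% the CCAAT box and 42.6% the GC box. The SOX5 window lies at chr12:24562545-24562741 on the minus strand and is printed from position -250 to -54, without the 53 bases next to the start, which Gencode v44 annotates as exonic. The SOX13 window lies at chr1:204072865-204073114 on the plus strand.
SOX5: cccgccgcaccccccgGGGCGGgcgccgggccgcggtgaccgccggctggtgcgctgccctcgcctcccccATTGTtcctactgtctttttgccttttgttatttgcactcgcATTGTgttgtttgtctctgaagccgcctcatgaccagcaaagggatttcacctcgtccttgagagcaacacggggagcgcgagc
SOX13: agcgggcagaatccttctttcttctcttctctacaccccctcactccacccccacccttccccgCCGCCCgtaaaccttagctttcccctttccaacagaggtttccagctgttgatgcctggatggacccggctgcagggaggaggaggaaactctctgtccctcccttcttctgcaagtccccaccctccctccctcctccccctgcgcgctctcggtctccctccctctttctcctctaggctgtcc
The SOX5 window held 2 matches to the SOX core, a number reached by 6.28% of promoters, and 1 GC box. The SOX13 window held 1 GC box and no match to the SOX core. Neither window held these letters of the RUNX motif or the E-box. Over the 250 bases SOX5 had 27 CpG dinucleotides, 18 of them in the printed stretch, and SOX13 had 8, against a median of 11 over all promoters. A match is a description of the letters, and the annotated start may differ from the start used in these cells.

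**Figure D2:**
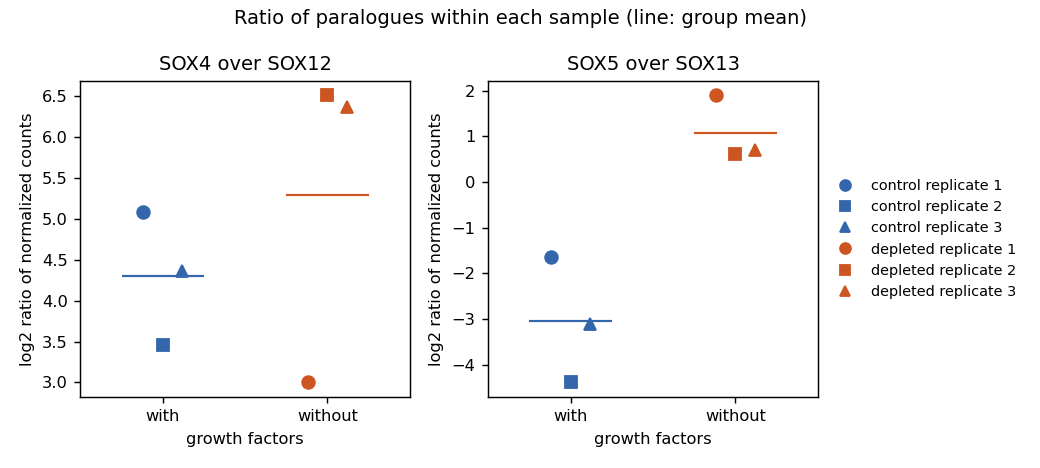
Log2 ratio of normalized counts of SOX4 over SOX12 and of SOX5 over SOX13 within each of the 6 samples, by group, with symbols for the replicate number and lines at the group means. The SOX5 over SOX13 ratio runs from -4.39 to -1.65 with growth factors and from 0.61 to 1.90 without, whereas the SOX4 over SOX12 ratio overlaps between the groups because depleted replicate 1 is at 3.0.

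Among the SoxC genes, SOX4 had the highest level of the family but did not pass the test. SOX4 (ENSG00000124766.5) is a gene of 1 exon block at chr6:21593751-21598619 on the plus strand. Its normalized counts were 3573.0, 1722.4 and 6274.3 in control and 2572.9, 18542.8 and 15951.2 in depleted samples. Depleted replicates 2 and 3 were above every control sample, and depleted replicate 1 lay within the control range. The log2 fold change was 1.43 (SE 0.78, 95% interval -0.34 to 3.21, adjusted p = 0.364 by limma). Without depleted replicate 1 it was 2.35, still short of the threshold (adjusted p = 0.0532 by limma). It was 0.92 without depleted replicate 2, 1.03 without depleted replicate 3 and 0.95 without control replicate 2, with an adjusted p of up to 0.731 by limma. Depleted replicate 1 is the sample with the low KRT5 and EPCAM and the high PDGFRB values given above, and their part in the SOX4 result was not tested.

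SOX12, the SoxC relative of SOX4, is also a gene of 1 exon block (ENSG00000177732.7, chr20:325552-330224, plus strand). SOX12 was measured at 104.0, 155.8 and 304.0 normalized counts in control and 321.3, 201.9 and 192.3 in depleted samples, and the groups overlapped. SOX12 had a log2 fold change of 0.44 (SE 0.46, 95% interval -0.61 to 1.50, adjusted p = 0.669 by limma). Depleted replicate 1, the lowest depleted sample for SOX4, was the highest for SOX12. The ratio of SOX4 to SOX12 was 34.3, 11.1 and 20.6 in control samples and 8.01, 91.8 and 83 in depleted samples. On the log2 scale it was 4.30 ± 0.82 in control and 5.29 ± 1.99 in depleted samples (SD, n = 3), a difference of 0.99 with an exact two-sided permutation p of 0.5. Leaving out depleted replicate 1 raised the difference to 2.14, and the other samples left out gave values down to 0.38.

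The windows upstream of SOX4 and SOX12 are shown to set the SoxC pair beside each other, with the same motifs in capitals. The SOX4 window lies at chr6:21593501-21593750 and the SOX12 window at chr20:325302-325551, both on the plus strand.
SOX4: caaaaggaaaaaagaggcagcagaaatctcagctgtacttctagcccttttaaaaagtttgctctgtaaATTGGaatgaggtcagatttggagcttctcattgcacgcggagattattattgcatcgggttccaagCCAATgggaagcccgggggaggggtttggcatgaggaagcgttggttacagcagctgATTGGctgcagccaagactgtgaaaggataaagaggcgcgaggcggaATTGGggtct
SOX12: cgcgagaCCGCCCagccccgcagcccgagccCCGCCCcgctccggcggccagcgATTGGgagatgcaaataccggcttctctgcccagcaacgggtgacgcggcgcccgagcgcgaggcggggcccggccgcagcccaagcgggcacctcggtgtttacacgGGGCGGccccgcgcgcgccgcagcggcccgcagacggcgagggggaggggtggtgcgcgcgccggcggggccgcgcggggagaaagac
The SOX4 window held 4 CCAAT boxes, a number reached by 0.874% of promoters, and no GC box. The SOX12 window held 1 CCAAT box and 3 GC boxes, the latter number reached by 13.9% of promoters. Their base composition differed too, with a GC content of 48.8% and 8 CpG dinucleotides for SOX4 and of 79.2% and 42 for SOX12, against medians of 58% and 11.

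SOX9, the SoxE factor of cartilage and of mammary progenitor cells, was abundant in both groups and did not pass the test. It (ENSG00000125398.5) lies at chr17:72121020-72126416 on the plus strand. Its normalized counts were 1913.7, 1776.9 and 4140.5 in control and 1178.9, 1982.1 and 1370.6 in depleted samples. Control replicate 3 alone stood high, and the other values overlapped. SOX9 had a log2 fold change of -0.71 (SE 0.39, 95% interval -1.60 to 0.18, adjusted p = 0.369 by limma), and without control replicate 3 it was -0.32 (adjusted p = 0.466 by limma).

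SOX15, the SoxG factor, was down-regulated and had the most even control values of the family. It (ENSG00000129194.6) lies at chr17:7588178-7590094 on the minus strand, with 2 exon blocks and 1465 exon bases. Its normalized counts were 144.1, 138.3 and 141.7 in control and 27.5, 14.4 and 35.8 in depleted samples. The groups did not overlap, and the control mean was 5.46 times the depleted mean. The log2 fold change was -2.49 (SE 0.48, 95% interval -3.58 to -1.41, adjusted p = 0.019 by limma). The adjusted p was 0.0258 by edgeR and 1.4e-05 by DESeq2. The call was lost without control replicate 1 (log2 fold change -2.48, adjusted p = 0.0744 by limma), without control replicate 2 (-2.51, adjusted p = 0.0643 by limma) and without depleted replicate 2 (-2.14, adjusted p = 0.0825 by limma). The smallest number of reads behind a SOX15 value was 16, in depleted replicate 3. Of the exon bases of SOX15, 35 (2.39%) also belong to MPDU1 on the opposite strand, and the strand setting of the counting is not given in the sources used here. MPDU1 had a log2 fold change of 0.05 (adjusted p = 0.973 by limma).

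**Figure D3:**
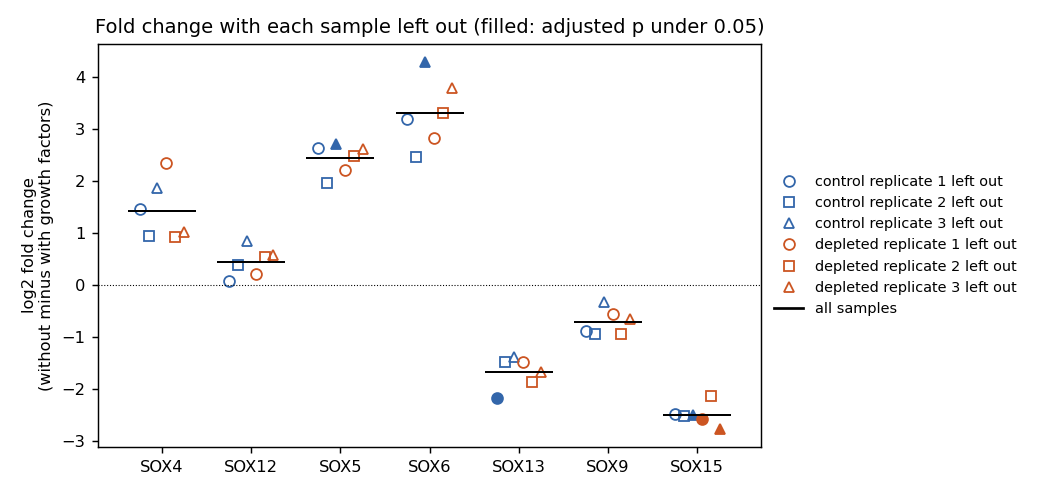
Log2 fold change (without minus with growth factors) of the 7 SOX genes with each of the 6 samples left out in turn, with filled symbols where the adjusted p by limma was under 0.05 and black lines at the value from all samples. No gene crosses 0. SOX5 stays filled only without control replicate 3, SOX13 is filled only without control replicate 1, and SOX4 moves up to 2.35 without depleted replicate 1.

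Control replicate 3 held the highest control value for 5 of the 6 SOX genes (83.3%), all but SOX15, and also for SOX6. Over all genes tested it held the highest control value for 41.3%. Control replicate 2 held the lowest control value for 4 of the 6, namely SOX4, SOX5, SOX9 and SOX15, against 30.5% of all genes tested. In depleted samples no replicate held the highest value for more than 3 of the 6. The source of this spread between control samples was not tested.

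The proteins closest to SOX factors by their DNA-binding domain are the TCF and LEF factors, the nuclear partners of beta-catenin. Of the 4 genes, 1 passed the test, LEF1, with 6.3, 4.7 and 6.9 normalized counts in control and 48.5, 73.4 and 49.2 in depleted samples. Over all genes tested, limma called 6.33% in either direction and 4.36% higher, and 1 gene does not speak for the list. LEF1 rose with a log2 fold change of 3.05 (SE 0.53, adjusted p = 0.0126 by limma). The call was lost without depleted replicate 2 (2.86, adjusted p = 0.0929 by limma) and without depleted replicate 3 (3.14, adjusted p = 0.0716 by limma). TCF7L1, which acts mainly as a repressor, had 1.3, 0.6 and 33.4 normalized counts in control and 31.1, 95.7 and 38 in depleted samples, with overlapping groups (log2 fold change 3.31, adjusted p = 0.144 by limma). With each sample left out in turn it ran from 2.49 to 4.71 and passed only without control replicate 3 (adjusted p = 0.00707 by limma), while the other fits gave an adjusted p of up to 0.399. The values for TCF7 and TCF7L2 were -0.52 and -0.44 on the log2 scale, and neither passed.

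**Figure D4:**
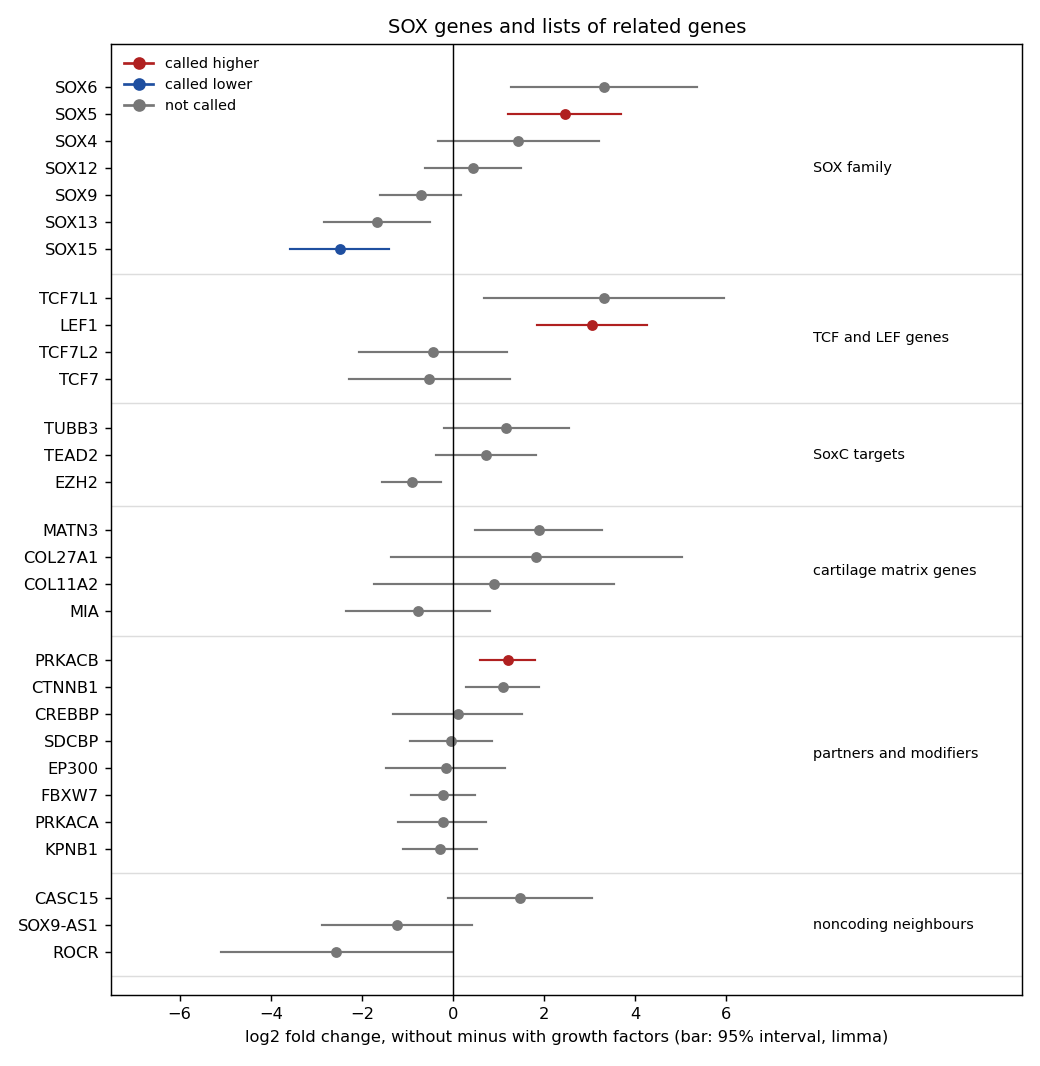
Log2 fold change (without minus with growth factors) with its 95% interval from limma for the 7 SOX genes and the tested genes of 5 lists of related genes, coloured by whether the gene was called higher, called lower or not called. SOX5, LEF1 and PRKACB are called higher and SOX15 is called lower, and the intervals of SOX4, SOX9 and SOX12 include 0.

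Of the known SoxC targets, 3 were tested and limma called 0, with 1 at an unadjusted p under 0.05, a level reached by 20% of all genes tested, and edgeR and DESeq2 called 0 each. That gene was EZH2, a histone methyltransferase reported downstream of SOX4, with 794.6, 1069.2 and 1198.2 normalized counts in control and 511.6, 601.9 and 498.6 in depleted samples. EZH2 lay lower in every depleted sample (log2 fold change -0.91, adjusted p = 0.102 by limma), while SOX4 itself was higher in 2 of the 3. TUBB3, a neuronal tubulin, had a log2 fold change of 1.16 (adjusted p = 0.338 by limma), and TEAD2, a partner of YAP, 0.73 (adjusted p = 0.464 by limma). DCX is not listed in the table.

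Cartilage matrix genes, known targets of SOX9 with SOX5 and SOX6, were mostly at low levels or not listed. Of 14 genes 7 are in the table and 4 were tested, of which limma called 0, with 1 at an unadjusted p under 0.05 (20% of all genes tested). COL2A1, COL9A1, COL9A2, COL11A1, ACAN, COMP and CNMD are not listed. MATN3, a matrilin, had 82.7, 49.8 and 18.7 normalized counts in control and 98.9, 199.3 and 207.9 in depleted samples, so that the groups were apart (log2 fold change 1.88, adjusted p = 0.121 by limma). DESeq2 called MATN3 and edgeR called 0 of the 4. The other genes tested were COL11A2, COL27A1 and MIA, with overlapping groups and log2 fold changes of 0.90, 1.83 and -0.77, and the sign for COL11A2 and COL27A1 turned with the test (-0.32 and -0.14 by edgeR). COL27A1 passed only without control replicate 3 (3.63, adjusted p = 0.0168 by limma), and was at 0.77 without control replicate 1 (adjusted p = 0.861 by limma).

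Of 8 genes for partners and modifiers of SOX proteins, limma called 1 higher and 0 lower, while edgeR called 1 and DESeq2 2. Of all genes tested, limma called 6.33%, edgeR 5.72% and DESeq2 12.4%, so counts this small say little about the list. PRKACB, a catalytic subunit of protein kinase A, had 330.9, 308.7 and 331.5 normalized counts in control and 667.2, 828.8 and 744.6 in depleted samples. PRKACB rose with a log2 fold change of 1.2 (SE 0.26, adjusted p = 0.0337 by limma). The adjusted p of PRKACB reached 0.169 with 1 sample left out, and of these fits only that without control replicate 3 called it. It was also lost when limma was fitted without a trend (adjusted p = 0.0612). CTNNB1, which encodes beta-catenin, lay higher in every depleted sample, at 14743.4, 14915.7 and 19448.2 normalized counts against 9492.1, 8007.4 and 5837.5. Its log2 fold change of 1.09 did not pass by limma (adjusted p = 0.116) or edgeR (adjusted p = 0.115), while DESeq2 called it (adjusted p = 0.0119). KPNB1, an importin, had a log2 fold change of -0.28 and SDCBP, the scaffold syntenin, -0.05, and neither passed.

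The noncoding genes named after or beside SOX genes gave 3 tested genes, of which limma called 0, with 1 at an unadjusted p under 0.05 (20% of all genes tested), and edgeR and DESeq2 called 0 each. CASC15, a long noncoding RNA beside SOX4 on chromosome 6, had 52.6, 28.7 and 144.6 normalized counts in control and 80.5, 295.7 and 201.2 in depleted samples (log2 fold change 1.47, adjusted p = 0.292 by limma). Like SOX4, CASC15 was lowest in control replicate 2, and in the depleted group it was lowest in replicate 1 and highest in replicate 2. SOX9-AS1, which runs across SOX9 on the opposite strand and shares 0 exon bases with it, had 124.1, 34.0 and 269.5 normalized counts in control and 54.9, 38.7 and 40.2 in depleted samples (log2 fold change -1.23, adjusted p = 0.399 by limma). ROCR, upstream of SOX9, had 41.4, 1.8 and 18.7 normalized counts in control and 2.7, 2.0 and 0.0 in depleted samples (log2 fold change -2.56, adjusted p = 0.245 by limma). Every depleted value of ROCR was near the floor.

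For each SOX gene the 3 protein-coding genes with the most similar log2 values over the 6 samples were searched among 10583 genes with a mean of at least 100. With 6 samples in 2 conditions and so many genes searched, high coefficients arise readily, and Pearson's r is given as a description. A gene chosen for its likeness to SOX5, SOX13 or SOX15 tends to differ between the groups by that choice. Its fold change and adjusted p are thus also descriptions, not separate results. SOX5 was most like TLE4 (r = 0.998), a Groucho family corepressor, followed by SAP30L and MTMR10 (each r = 0.994). TLE4 rose with SOX5, from 309.6, 145.3 and 370.9 normalized counts in control to 1372.0, 1144.8 and 874.3 in depleted samples (log2 fold change 2.12, adjusted p = 0.0187 by limma). SOX13 was most like RAPGEF5 and GAREM1 (each r = 0.987) and NFX1 (r = 0.986), and of these GAREM1, an adaptor of EGF receptor signalling, passed with a log2 fold change of -1.92 (adjusted p = 0.0389 by limma). SOX15 was most like FDXR (r = 0.988), ZBTB7B (r = 0.982) and EXOC4 (r = 0.978). ZBTB7B, a zinc finger factor, fell with a log2 fold change of -1.28 (adjusted p = 0.0278 by limma).

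SOX4 was most like FGFR2 (r = 0.997), TRPV6 (r = 0.994) and SMPDL3A (r = 0.988). FGFR2, a fibroblast growth factor receptor, had 32.6, 13.5 and 83.6 normalized counts in control and 23.8, 270.1 and 281.7 in depleted samples. FGFR2 followed SOX4 in its low depleted replicate 1, and did not pass (log2 fold change 1.84, adjusted p = 0.375 by limma). SOX9 was most like ZNF107 (r = 0.991), GSE1 (r = 0.985) and PAXBP1 (r = 0.983), and SOX12 most like ZNF346 (r = 0.991), SLC27A1 (r = 0.990) and PPP3CB (r = 0.989), none of which passed the test.

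Markers of cells in which other SOX factors are known were also looked up. Of 4 neural crest, glia and melanocyte markers, PMEL is in the table, at 11.1 to 38.4 normalized counts in control and 13.4 to 18.4 in depleted samples, and SOX10, S100B and MLANA are not listed. The chondrocyte list had 2 of 6 genes listed (COL11A2 and MATN1), with sums of 2.5 to 106.2 in control and 17.4 to 58.1 in depleted samples. Of the endothelial markers CDH5 was called higher, while KDR was at 32.2 to 778.3 in control and 0.0 to 24.9 in depleted samples (log2 fold change -3.83, adjusted p = 0.193 by limma) and PECAM1 had a log2 fold change of 0.09. The summed endothelial list ran from 167.2 to 1787.1 in control and from 264.9 to 1610.0 in depleted samples. PTPRC and CD14 of the immune list are in the table. PTPRC, the defining marker, was at 0.0 to 2.0 in control and 10.1 to 13.8 in depleted samples, whereas CD14 was at 270.5 to 882.3 in control and 72.8 to 646.2 in depleted samples (log2 fold change -1.53, adjusted p = 0.355 by limma). Of the mesenchymal list, THY1 was at 0.0 to 1.0 in control and 2.7 to 6.7 in depleted samples, while VIM, FN1, COL1A1, COL1A2 and PDGFRB rose with SOX5 and against SOX15. The part of these markers in the SOX results was not tested.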

How the data were processed

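RNA-Seq was analysed from 6 samples of MCF10A cells, 3 with and 3 without growth factors, grouped by their labels. Total RNA was depleted of ribosomal RNA, and stranded libraries were read as single-end 100 base reads. The authors aligned the reads to hg38 by TopHat2, summed them per Gencode v22 gene by HTSeq and normalized the counts by DESeq2. The submitters' processing notes list cutadapt 1.6, HTSeq 0.6, DESeq2 1.8.1 and R 3.2.0. The deposited signal is normalized counts, that is reads divided by a size factor. All values (100%) came out as whole reads within 0.01, and recomputed size factors equalled the implied ones. The rule by which genes with few reads were left out is not given in the sources used here, and every listed gene had 3 or more reads in 3 or more samples. The depth of 7472418 to 28672630 reads on genes limits the precision of low values.

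Gencode v44 named 18913 of 19198 genes. Differences were tested on log2(normalized count + 1) by lmFit and trended eBayes of limma 3.58.1 (R 4.3.3), with Benjamini-Hochberg adjustment. Alternatives were edgeR 4.0.16 and DESeq2 1.42.0 on whole reads, pseudocounts of 0.5 and 10, no filter or a mean of at least 50, equal totals, quantile normalization, no trend, the replicate number as a block, an adjusted p under 0.1 and each sample left out in turn. The count test on whole reads gave 971 genes by edgeR and 2112 by DESeq2. Procedures were tested on simulated data. Tables were made in Python 3.11.15 (pandas 2.3.3 and numpy 2.4.6), permutation tests in scipy 1.17.1 and figures in matplotlib 3.10.9.

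The members and lists were chosen with earlier results of these data known. Genes named are the SOX genes in the table, up to 4 called genes by largest change and up to 4 others by highest mean of each list, and the 3 most similar genes of each SOX gene. MPDU1, the markers and genes listed at low levels were named after their values were seen. Some genes of the lists are not reported here. A larger pseudocount lowers the fold changes of low genes, but the limma values are not always the smaller ones. On the log2 scale TCF7L1 was at 3.31 by limma and 2.26 by edgeR, whereas LEF1 was at 3.05 by limma and 3.30 by edgeR.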

Additional observations from a re-analysis of the deposited data

How the results depend on the processing

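Of the 6 SOX genes, none changed direction under any alternative tried. The number of genes called over the whole table, 1076 by limma, was 2112 by DESeq2, 1706 at an adjusted p under 0.1, and 453 to 2474 with each sample left out in turn, the highest without control replicate 3 and the lowest without depleted replicate 2. The number of SOX genes called, 2 by limma, was 3 by DESeq2, and 0 to 2 with each sample left out (0 without control replicate 2 and without depleted replicate 2). With each sample left out the log2 fold change of SOX4 ran from 0.92 to 2.35 and never passed. The log2 fold change of SOX5 ran from 1.97 to 2.71, that of SOX13 from -2.17 to -1.38 and that of SOX15 from -2.76 to -2.14 with each sample left out. SOX13 passed by DESeq2 at -1.80. Leaving out a sample also leaves fewer samples for the test. The cause of the other changes was not tested.

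The log2 values of samples with the same replicate number, as deviations from the group means, had correlations of -0.073, -0.283 and -0.323 across genes. For samples with different numbers the correlations ran from -0.068 to 0.291. The deviations within a group depend on each other. Whether samples with the same number shared a culture or batch thus cannot be decided from these values. With the replicate number as a block, limma called 1 SOX gene, SOX15 (adjusted p = 0.043). SOX5 kept its log2 fold change of 2.45 with an adjusted p of 0.0559 in the blocked fit by limma, and SOX6 passed (adjusted p = 0.0403). PRKACB did not pass with the block (adjusted p = 0.139).

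Directions turned only among related genes that had not passed. COL11A2 was at -0.32 by edgeR, -0.35 by DESeq2 and between -0.16 and 2.27 with samples left out, and COL27A1 at -0.14 by edgeR and -0.20 by DESeq2. With samples left out, TCF7 ran from -1.12 to 0.31, TCF7L2 from -0.90 to 0.43 and SDCBP from -0.44 to 0.17. SDCBP was at 0.00 after scaling to equal totals and at 0.11 after quantile normalization. The depth limits low genes such as ROCR, LEF1, TCF7L1 and COL27A1, which had few reads in most samples of their lower group.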
